A study of Mus musculus with 8 samples.

Results

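The split examined here sets the arrays numbered replicate 2 or 3 against those numbered replicate 1 or 4, whichever genotype their labels give. Each side holds 4 of the 8 arrays of the series: replicates 2 and 3 comprise WT 2, WT 3, Runx1f/f 2 and Runx1f/f 3, and replicates 1 and 4 comprise WT 1, WT 4, Runx1f/f 1 and Runx1f/f 4. The split was selected on the log2 intensities of these same 8 arrays, which an earlier look had shown to part along it, and so were its 6 marker genes. The differences are therefore given as a description, without tests.

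RNA came from primary myoblasts, the dividing muscle precursors that grow out of satellite cells, taken from gastrocnemius muscle of C57bl/6 mice aged 2 to 3 weeks. The animals were wild type (WT) or Runx1f/f, a genotype with both Runx1 alleles flanked by recombination sites. The protocol text also speaks of a knockout, and the sources used here name neither the Cre driver nor the time of deletion. All 8 cultures were grown on Matrigel in proliferation medium with no further treatment named, and each sample was put on 1 Affymetrix MoGene 1.0 ST array. The labels call the samples biological replicates and do not say whether a sample came from 1 animal or from several pooled animals.

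Values are log2 intensities, and a difference is the mean of replicates 2 and 3 minus the mean of replicates 1 and 4. Array medians lay between 4.39 and 4.41. Markers of cultured myoblasts were bright on all 8 arrays, with Myod1 between 11.12 and 11.57, Des between 11.13 and 11.47 and Cdh15 between 9.90 and 10.38, while the satellite cell factor Pax7 lay between 6.83 and 7.19.

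The genotype labels of the columns are in doubt, which bears on every result below. Averaged over WT 1 to 4, over the pair Runx1f/f 1 and 2, or over the pair Runx1f/f 3 and 4, each of the 35399 probe sets gave the same value within 7.5e-05. A difference between the labelled genotypes therefore cannot be read from these values, whether or not the animals differed. Within a pair with a fixed mean, such as Runx1f/f 1 and 2, a gene that is higher in one column is lower in the other by the same amount about that mean. The 8 columns varied along 5 components and are not 8 independent measurements. As a hypothesis that was not tested, the value columns may follow the samples' source numbers in rising order. Replicates 2 and 3 would then be the 4 Runx1f/f samples and replicates 1 and 4 the 4 WT samples. The labels are used below only as they stand, as names of columns.

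As background, satellite cells that are activated after injury divide as myoblasts, leave the cell cycle, and then express the contractile apparatus and fuse into fibres. MyoD and Myf5 act early in this programme, and myogenin and Mef2 factors act late. Runx1 is a DNA-binding transcription factor that pairs with Cbfb and is induced in damaged muscle. The title of the series places Runx1 with MyoD and c-Jun in the balance between proliferation and differentiation. The Dlk1-Dio3 interval is an imprinted cluster that expresses protein-coding genes such as Dlk1 from the paternal chromosome and non-coding RNAs, among them Meg3, Rian and many microRNAs, from the maternal one.

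The microRNA genes of that interval were among the genes that differed most. The mature sequences of the 7 with the largest differences are shown for this reason, as RefSeq gives them (GRCm38.p6), 5′ to 3′ with the seed (bases 2 to 8) in capitals.
mmu-miR-679-5p: gGACUGUGaggugacucuuggu
mmu-miR-679-3p: aGCAAGGUccuccucacaguag
mmu-miR-380-5p: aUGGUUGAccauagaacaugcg
mmu-miR-380-3p: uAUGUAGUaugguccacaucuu
mmu-miR-323-5p: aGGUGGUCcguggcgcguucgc
mmu-miR-323-3p: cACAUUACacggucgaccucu
mmu-miR-487b-5p: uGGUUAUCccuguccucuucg
mmu-miR-300-5p: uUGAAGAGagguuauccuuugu
mmu-miR-300-3p: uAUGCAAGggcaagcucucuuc
mmu-miR-382-5p: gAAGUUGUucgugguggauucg
mmu-miR-382-3p: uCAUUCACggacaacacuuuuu
mmu-miR-329-5p: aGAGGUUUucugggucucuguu
mmu-miR-329-3p: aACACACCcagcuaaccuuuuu

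Across the whole interval, 40 microRNA genes matched 76 mature sequences with 74 different seeds. Only 2 seeds were held by more than 1 mature sequence, in the pairs shown next because their members differ outside the seed.
mmu-miR-379-3p: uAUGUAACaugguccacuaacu
mmu-miR-411-3p: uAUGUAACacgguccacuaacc
mmu-miR-376c-5p: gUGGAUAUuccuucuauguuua
mmu-miR-376b-5p: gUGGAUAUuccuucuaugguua

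Probe sets of these arrays read the primary transcript or hairpin and not the mature microRNA, so the values below are levels of microRNA genes.

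A gene was called when the set means differed at least 1.5-fold and the 4 arrays of one set did not overlap the 4 of the other. Of 19938 genes, 430 (2.16%) were called higher and 145 (0.727%) lower in replicates 2 and 3. These shares are the background for every count below. With no condition on size, 1968 genes (9.87%) were higher and 2091 (10.5%) lower without overlap. Differences of at least 2-fold were held by 160 of the higher and 35 of the lower genes, and of at least 4-fold by 48 and 5. The median difference over all genes was -0.0064. All 575 called genes had the same sign among arrays labelled WT and among arrays labelled Runx1f/f, which the condition on overlap itself fixes. For a Runx1f/f pair the equal means make overlap impossible once both pair differences have the same sign, so the absence of overlap is a weaker condition there than in 4 independent arrays. Just inside the threshold were Pdgfrb, Dock11 and Ttl, with differences of 0.59, -0.59 and 0.59, and just outside it Tacc2, Myl1 and Macrod1, each at 0.58.

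For the 6 genes that mark the split, the means of the 2 sets differed by more than the range of values within either set. Dlk1, a transmembrane protein related to Notch ligands and used as a marker of preadipocytes and regenerating muscle, had the largest difference of all genes. It measured 8.61, 9.52, 8.55 and 9.55 on WT 2, WT 3, Runx1f/f 2 and Runx1f/f 3, against 4.28, 4.11, 4.72 and 3.71 on WT 1, WT 4, Runx1f/f 1 and Runx1f/f 4. The means were 9.06 ± 0.55 (SD, n = 4) and 4.21 ± 0.41 (SD, n = 4), a difference of 4.85. No array of one set came near the other set.

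Cdkn1c encodes p57, an imprinted inhibitor of cyclin-dependent kinases that acts at cell cycle exit. In the same array order it measured 11.05, 11.36, 10.29 and 10.17 against 6.10, 6.56, 7.25 and 7.37, a difference of 3.90. Nrk, an X-linked protein kinase, measured 9.41, 9.85, 8.25 and 8.39 against 4.37, 4.65, 5.88 and 5.74, a difference of 3.82. For both genes the arrays labelled WT lay further apart than those labelled Runx1f/f, without any overlap of the sets.

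Sp7, the osteoblast transcription factor osterix, ran the other way. It measured 3.86, 3.34, 4.86 and 5.01 in replicates 2 and 3 against 7.76, 7.33, 6.28 and 6.14 in replicates 1 and 4, a difference of -2.61. Igfbp2, a binding protein of insulin-like growth factors, measured 7.22, 5.53, 6.94 and 6.58 against 9.38, 9.26, 8.75 and 9.12, a difference of -2.56. Alox5, the lipoxygenase that starts leukotriene synthesis, measured 8.32, 6.59, 7.89 and 7.68 against 10.03, 10.04, 9.60 and 9.81, a difference of -2.25. WT 3 was the lowest array for all 3 genes. The gap between the nearest arrays of the sets was 1.13 for Sp7, 1.53 for Igfbp2 and 1.28 for Alox5. Each gap was smaller than the range within replicates 2 and 3.

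**Figure D1:**
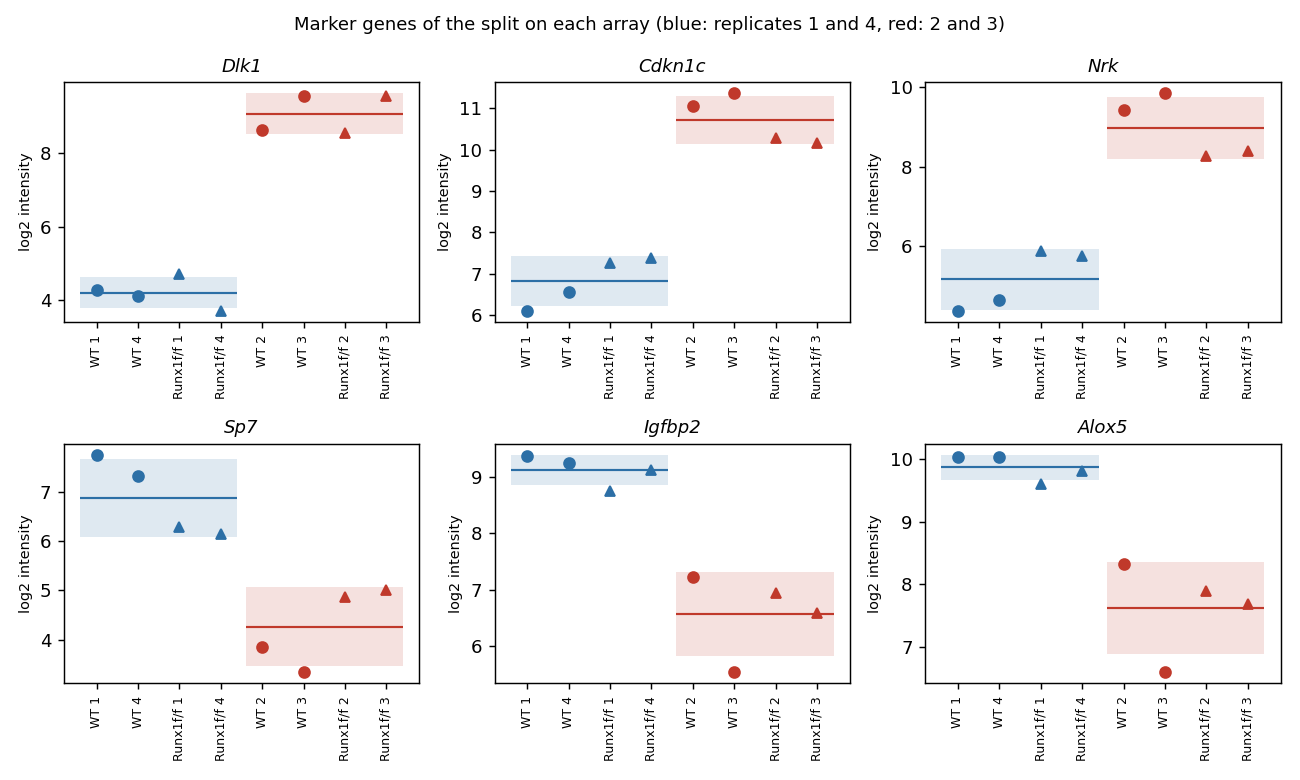
Log2 intensity of the 6 marker genes on each of the 8 arrays, with circles for arrays labelled WT and triangles for arrays labelled Runx1f/f; lines are set means and bands ± 1 SD (n = 4). Dlk1, Cdkn1c and Nrk are high and Sp7, Igfbp2 and Alox5 low on all 4 arrays of replicates 2 and 3, and no array overlaps the other set.

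Runx1, the gene under study, was itself higher in replicates 2 and 3. It measured 9.99, 10.27, 9.98 and 9.89 on WT 2, WT 3, Runx1f/f 2 and Runx1f/f 3, against 9.15, 9.25, 9.35 and 9.44 on WT 1, WT 4, Runx1f/f 1 and Runx1f/f 4. The means were 10.03 ± 0.16 and 9.30 ± 0.13 (SD, n = 4 each), a difference of 0.74. The sources used here do not say which exons the deletion removes or whether the probe set reads them, so this level does not settle which arrays lack a working gene. Its partner Cbfb differed by 0.07, less than the SD of 0.12 within either set. Of 16 measured genes of the Runx family and its partners, 3 were called higher and 0 lower: Runx1 and the corepressors Tle4 (0.93) and Tle1 (0.68). The median of the list was 0.06.

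The Dlk1-Dio3 interval on chromosome 12 was higher almost throughout in replicates 2 and 3. RefSeq places 103 genes from Dlk1 to Dio3, of which 48 were measured, and 46 of the 48 were called higher. The exceptions were Mir666, with a difference of 0.31, and Dio3, the deiodinase gene at the far end, which lay at 3.07 and 3.06 in the 2 sets. The interval was singled out with the values in view, so its count is a description of these arrays. Neighbouring genes here share primary transcripts and are not independent measurements.

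The long non-coding RNA Rian, which hosts small nucleolar RNAs, measured 8.71, 9.28, 9.22 and 8.95 on WT 2, WT 3, Runx1f/f 2 and Runx1f/f 3, against 5.06, 5.10, 4.85 and 5.13 on WT 1, WT 4, Runx1f/f 1 and Runx1f/f 4. Its difference was 4.00, second only to Dlk1. Meg3, the long non-coding RNA next to Dlk1, was already well expressed in replicates 1 and 4, with 9.49, 9.48, 8.66 and 9.19, and reached 11.46, 11.69, 12.40 and 11.87 in replicates 2 and 3, a difference of 2.65. Rtl1, a retrotransposon-derived protein-coding gene, differed by less, with 4.82, 5.02, 4.76 and 4.74 against 3.72, 3.67, 3.85 and 3.88, or 1.05. The 3 measured small nucleolar RNA genes of the interval were all called higher.

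Of the 40 measured microRNA genes of the interval, 39 were called higher, with differences from 1.11 to 3.60 among those called and a median of 2.38 over all 40. Mir679, whose mature forms are printed above, measured 8.63, 8.95, 9.21 and 9.05 against 5.42, 5.63, 5.11 and 5.27, a difference of 3.60. Mir380 and Mir323 followed at 3.48 and 3.45. All arrays of replicates 1 and 4 lay below all arrays of replicates 2 and 3 for each of these genes.

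Mir487b differed by 3.35, Mir300 and Mir382 by 3.23 each, and Mir329 by 3.08. The least spread of these within a set was in Mir329, at 8.74 ± 0.14 against 5.66 ± 0.04 (SD, n = 4 each). The pair that shares a seed, Mir379 and Mir411, differed by 2.45 and 2.74, and the other such pair, Mir376b and Mir376c, by 2.17 and 1.11. Elsewhere in the genome 257 microRNA genes were measured, with a median difference of 0.018. Of these, 2 (0.778%) were called higher and 0 lower: Mir1a-1, a muscle microRNA gene, by 0.71 and Mir27a by 0.61. The higher calls did not come mainly from the interval, since 384 of the 430 lay outside it.

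**Figure D2:**
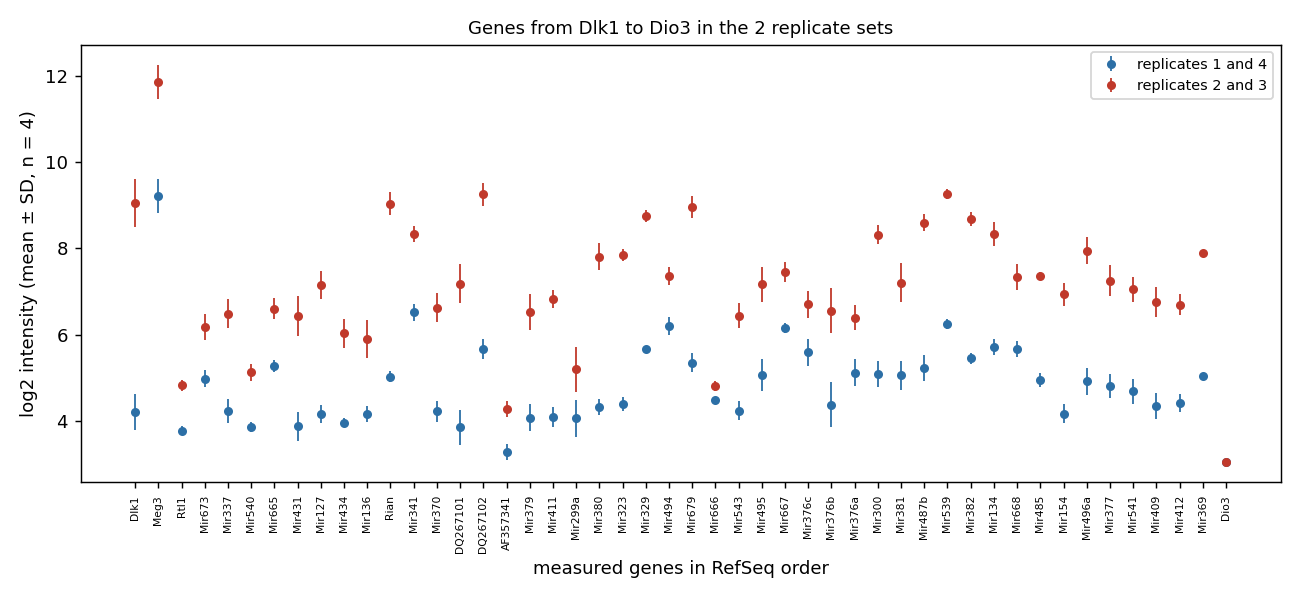
Mean log2 intensity ± SD (n = 4 arrays) of the 48 measured genes from Dlk1 to Dio3, in RefSeq order, for replicates 2 and 3 (red) and replicates 1 and 4 (blue). The red points stand above the blue ones over the whole interval except at Dio3, where the points coincide; the gap is smallest after that at Mir666 (0.31), which misses the 1.5-fold threshold.

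Imprinted genes outside the interval were also among those called higher. Of 42 measured imprinted genes on the list, which holds members of the interval too, 10 were called higher and 0 lower, with a median of 0.17. Besides Dlk1, Rian, Meg3, Rtl1 and Cdkn1c these were Zdbf2 (1.504), Grb10 (1.19), Peg10 (0.92), Zim1 (0.79) and Igf2r (0.69). Of the 42 genes, 12 had differences below 0, the lowest being that of Asb4 (-0.69). Grb10 encodes an adaptor that restrains insulin and IGF receptor signalling. It measured 10.49, 10.67, 10.18 and 10.56 against 9.04, 9.32, 9.58 and 9.20. The growth factor gene Igf2 was bright in both sets, at 11.65 ± 0.18 and 11.12 ± 0.19 (SD, n = 4 each), and its difference of 0.53 lay under the threshold; it is named after its value was seen.

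Smtnl2, a smoothelin-like gene, was another of the 12 largest higher differences (clone identifiers left out) and the only one besides Nrk from outside the imprinted genes above. It measured 7.60, 8.18, 7.29 and 7.58 against 4.55, 4.14, 4.95 and 4.65, a difference of 3.09. The gene AW551984 had a difference of 3.88; it has a clone identifier for a name and is named after its value was seen.

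Many contractile genes were higher in replicates 2 and 3. Of 51 measured contractile genes, 21 were called higher, beside 2.16% of all genes, and 0 lower, and the median difference was 0.51 against -0.0064 over all genes. In whole cultures, more differentiated cells and more of these RNAs per cell cannot be told apart. The median level of the list lay between 9.84 and 10.29 on replicates 2 and 3 and between 9.26 and 9.72 on replicates 1 and 4. Its median difference was 0.45 within WT 1 to 4, 0.88 within Runx1f/f 1 and 2 and 0.17 within Runx1f/f 3 and 4. The largest differences were those of Mybpc1 (1.54), a myosin-binding protein of slow fibres, Myot (1.47) and Myoz2 (1.35), both proteins of the Z-disc, and Csrp3 (1.30), a LIM protein of striated muscle. Mybpc1 measured 9.79, 9.74, 10.29 and 9.41 on WT 2, WT 3, Runx1f/f 2 and Runx1f/f 3, against 8.55, 8.08, 7.79 and 8.66 on WT 1, WT 4, Runx1f/f 1 and Runx1f/f 4. The list was not higher in full: 7 members had differences below 0, the lowest being that of Actn3 (-0.49).

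Genes of excitation-contraction coupling, muscle energy and fusion lay on the same side, with 10 of 34 called higher, 0 lower and a median of 0.34. This median was 0.30 within WT 1 to 4, 0.51 within Runx1f/f 1 and 2 and only 0.05 within Runx1f/f 3 and 4. Cav3, the muscle caveolin, had the largest difference and measured 9.31, 9.44, 9.74 and 9.46 against 8.57, 8.21, 8.02 and 8.31. Ckm, the muscle creatine kinase, differed by 0.99, Dysf, the membrane repair protein dysferlin, by 0.90 and Trdn, the calcium release protein triadin, by 0.77. For Trdn the array carries 19 probe sets and the mean of all of them gives 0.37 in place of 0.77. When the fold threshold was raised to 2, the counts fell to 8 of the contractile genes and 1 of the coupling list.

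The regulators upstream of these genes were found on both sides. Of 22 measured myogenic regulators, 4 were called higher and 1 lower, with a median of -0.09. Mef2c, a late factor, measured 9.74, 9.96, 10.46 and 9.86 against 9.10, 8.64, 8.26 and 8.86, a difference of 1.29. Myog, which encodes myogenin, measured 11.70, 11.76, 11.94 and 11.48 against 11.05, 10.84, 10.74 and 11.20, a difference of 0.76. Vgll2, a cofactor of Tead factors in muscle, differed by 0.74, and Smyd1, a methyltransferase of striated muscle, by 0.62.

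Myf5, the early factor, was the member called lower. It measured 7.66, 7.54, 7.54 and 7.90 against 8.51, 8.71, 8.67 and 8.31, a difference of -0.89. Myod1 differed by -0.26 without overlap of the sets, at 11.22 ± 0.07 and 11.48 ± 0.06, and stayed under the threshold. Pax7, at 7.11 ± 0.09 and 7.03 ± 0.15, differed by less than the spread within a set. Thus Myf5 and Myod1 were lower, and Myog and Mef2c higher, on every array of replicates 2 and 3 than on any array of replicates 1 and 4.

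Of 26 measured satellite cell and Notch genes, 2 were called higher, the Notch targets Nrarp (0.81) and Heyl (0.76), and 1 lower, Megf10 (-0.59), a receptor of satellite cells. The median of the list was 0.04. Its extremes were Hey1 (1.05) and Sdc3 (-0.81), which were not called because their sets overlapped. Nrarp rests in part on WT 1, which at 3.01 was far below the other arrays; leaving out arrays in turn gave differences from 0.45 to 0.94. The median of the 4 arrays in place of the mean gave 0.37 for Nrarp and 0.46 for Heyl. With arrays left out in turn, 0 to 3 members of this list were called higher and 0 to 2 lower, with 0 either way without WT 1, so its counts carry little weight.

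Replication genes were lower by small steps. Of 37 measured S phase genes, 0 were called in either direction at 1.5-fold, but all 37 had a difference below 0 and for 21 (56.8%) the sets did not overlap, against 10.5% of all genes lower without overlap. The median was -0.27, and list medians lay between 7.48 and 7.57 on replicates 2 and 3 and between 7.60 and 7.90 on replicates 1 and 4. Ccne2, the cyclin E2 that drives entry into S phase, had the largest difference and measured 6.31, 6.18, 6.46 and 6.22 against 6.75, 7.04, 6.68 and 6.92, a difference of -0.55.

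Of 37 measured G2/M genes, 0 were called and 36 had a difference below 0. For 15 (40.5%) the sets did not overlap, against 10.5% of all genes lower without overlap, and the median was -0.16. Birc5, the survivin of dividing cells, showed the largest difference, -0.37. Its values were 6.35, 6.28, 6.44 and 6.47 against 6.71, 6.94, 6.70 and 6.67. List medians of G2/M genes overlapped between the sets, since WT 1 at 8.01 lay among replicates 2 and 3. Genes of a phase vary together across cultures, so these counts are not independent observations.

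Among 24 measured Cdk inhibitors and G1 genes, 2 were called higher and 0 lower. Besides Cdkn1c this was Rb1, the retinoblastoma gene, at 9.27 ± 0.10 against 8.45 ± 0.13 (SD, n = 4 each), a difference of 0.82. The median of the list was 0.03. Cdkn1c thus stood far from the rest of its list.

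**Figure D3:**
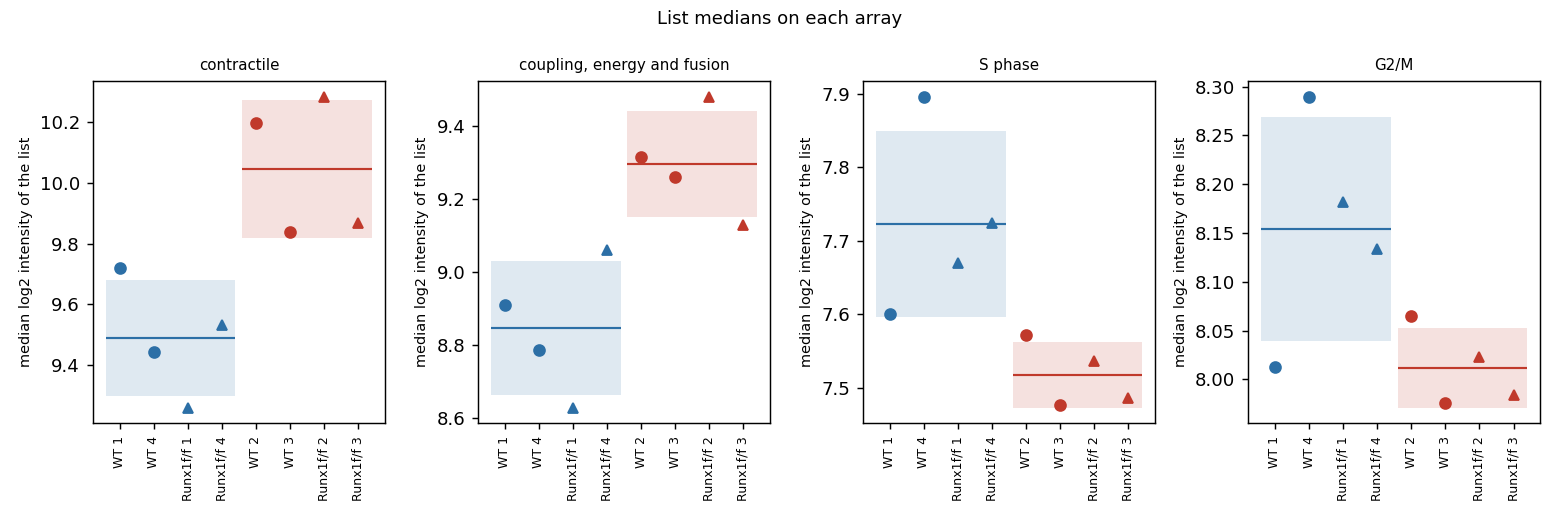
Median log2 intensity over the members of 4 gene lists on each array, with circles for arrays labelled WT and triangles for arrays labelled Runx1f/f; lines are set means and bands ± 1 SD (n = 4). The contractile list (9.84 to 10.29 against 9.26 to 9.72) and the coupling list are higher in replicates 2 and 3 and the S phase list is lower, each without overlap, while WT 1 overlaps the other set in G2/M.

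Members of the IGF axis went both ways, with 4 of 19 called higher, 1 lower and a median of 0.28. Igfbp4 (1.57), Igfbp6 (1.14) and Igfbp3 (1.11), binding proteins that hold IGFs outside the cell, were higher, as was Igf2r, while Igfbp2 was lower. Igfbp4 measured 8.35, 8.78, 8.16 and 8.16 in replicates 2 and 3 against 5.96, 7.21, 7.00 and 7.00 in replicates 1 and 4. Igfbp2 thus lay opposite to the other 3 called binding proteins.

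Of 49 measured growth factors and receptors, 7 were called higher and 1, Vegfa (-0.82), lower, with a median of 0.08. Erbb3, a neuregulin receptor, differed by 1.14, Spry4, a feedback inhibitor of receptor signalling, by 1.03, Hgf, the ligand that activates satellite cells, by 0.93, and Mstn, the myostatin gene whose product limits muscle growth, by 0.89. Hgf differed by 0.99 within WT 1 to 4, 0.07 within Runx1f/f 1 and 2 and 1.66 within Runx1f/f 3 and 4. Mstn measured 9.15, 8.97, 9.51 and 8.85 against 8.49, 8.10, 7.85 and 8.50. Of 37 Wnt pathway genes, 2 were called higher, the secreted modulator Sfrp2 (0.81) and the receptor Fzd4 (0.77).

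Of 42 measured genes of the extracellular matrix, 3 were called higher and 1 lower, and the median was 0.03. Bgn had the highest difference of the list, 1.48, but its sets overlapped and it was not called. The basement membrane collagens Col4a1 and Col4a2, neighbours that share a promoter, differed by 1.41 and 1.17, and Thbs4, a thrombospondin of muscle and tendon, by 0.92. Thbs1, a thrombospondin that binds many matrix and growth factor partners, ran the other way and measured 9.45, 9.12, 10.17 and 9.54 against 11.41, 11.35, 10.50 and 11.14, a difference of -1.53.

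The largest lower genes besides the markers belonged to no single list. Mcpt8, a protease known from basophils, measured 6.05, 3.91, 5.65 and 5.59 against 7.97, 8.18, 7.40 and 7.47, a difference of -2.45. R3hdml differed by -2.19, Adgrg3, an adhesion receptor, by -1.95, Ccn3, a matricellular protein, by -1.94 and Dynap, a dynactin-associated protein, by -1.91. Cthrc1, a secreted matrix protein, and Sema7a, a membrane-anchored semaphorin, differed by -1.89 each. Pdk4, the kinase that restrains pyruvate dehydrogenase, differed by -1.75, and Trp53i11, a gene named for its induction by p53, by -1.69.

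Of 23 genes of mast cells, basophils and eicosanoid synthesis, 0 were called higher and 3 lower: Mcpt8, Alox5 and Ltc4s (-0.79), the leukotriene C4 synthase. The median of that list was -0.0043. Of 15 osteoblast genes, 1 was called lower, Sp7, and 2 higher, Dmp1 (1.13), a bone matrix protein, and Mef2c. The median of the osteoblast list was -0.03, so that single genes known from bone and blood cells lay far from the middle of their lists.

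Cd36, the fatty acid transporter, measured 8.03, 8.48, 8.71 and 8.64 against 6.77, 5.91, 5.89 and 5.96, a difference of 2.33. Lpl, the lipase that frees fatty acids from lipoproteins, differed by 1.56 and Pparg, the regulator of fat cells, by -0.67. These were the only called members among 24 genes of fatty acid use and adipocytes, whose median was 0.02. Among 26 stress genes, Nqo1, an Nrf2 target, was higher by 1.18 and Chac1, an Atf4 target, lower by 0.81, that is a difference of -0.81.

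Lists with few or no calls were those of AP-1 (0 of 16, with Jun at -0.27 without overlap), glycolysis and hypoxia (0 of 23), cholesterol synthesis (0 of 18), cytokines (1 of 27, Il33 at 1.30), interferon response (1 of 21, Ifit2 at 0.92) and ion channels (2 of 24, Scn3b at 1.26 and Kcnn3 at 0.98). Il33 differed by 2.27 within WT 1 to 4, 0.02 within Runx1f/f 1 and 2 and 0.63 within Runx1f/f 3 and 4. Jun is the gene of c-Jun and measured 9.48 ± 0.05 against 9.74 ± 0.05 (SD, n = 4 each). Its values did not overlap between the sets, at a size below the threshold. Of 19 p53 targets 0 were called as well. Without overlap, 8 members were lower (42.1%, against 10.5% of all genes) and 4 higher (21.1%, against 9.87% of all genes). The median of the p53 targets was -0.10.

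**Figure D4:**
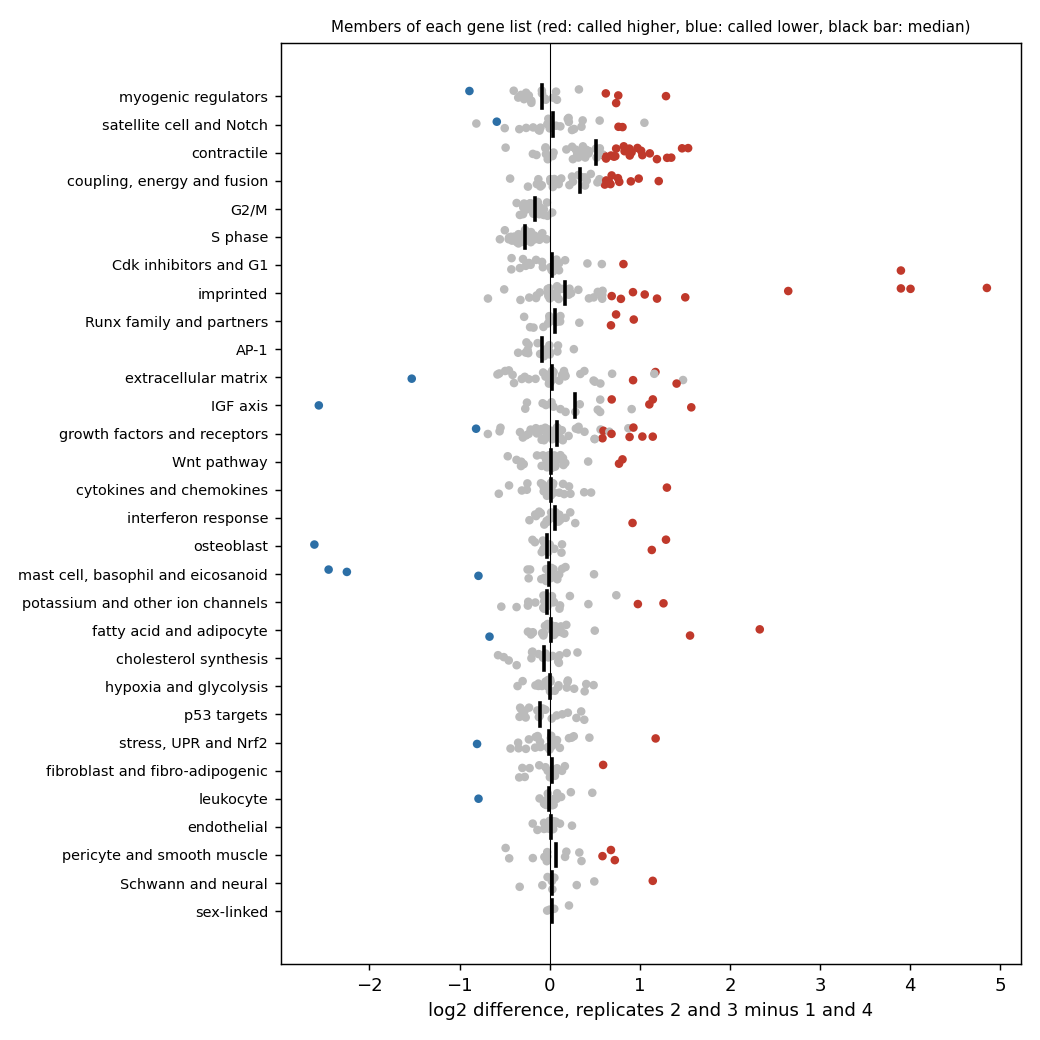
Log2 difference (replicates 2 and 3 minus replicates 1 and 4) of the measured members of each gene list, 1 point per gene, with red for genes called higher, blue for genes called lower, grey for genes not called and a black bar at the list median. The contractile list (median 0.51) lies mostly to the right of 0, all 37 S phase genes lie to its left, and a few imprinted genes reach furthest to the right.

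Genes that mark non-muscle cells of such cultures were mostly dim in both sets. The list medians lay between 3.51 and 3.65 on all arrays for fibroblast and fibro-adipogenic genes, between 3.49 and 3.61 for leukocyte genes and between 3.52 and 3.60 for endothelial genes. Of these lists, Gsn (0.59), an actin-severing protein, was called higher among 17 fibroblast genes and Laptm5 (-0.79), a lysosomal protein of blood cells, lower among 20 leukocyte genes, while 0 of 14 endothelial genes were called. Single members were far brighter than these medians. Gsn had means of 9.17 in replicates 2 and 3 and 8.57 in replicates 1 and 4, and Laptm5 of 7.14 and 7.93. Of 14 pericyte and smooth muscle genes, 3 were called higher, Cspg4 (0.72), Abcc9 (0.68) and Pdgfrb (0.59), and 0 lower. The list as a whole lay on both sides, with 7 members above 0, 7 below (the lowest being Rgs5 at -0.49) and a median of 0.07. Its list medians lay between 5.13 and 5.86 on replicates 2 and 3 and between 4.73 and 5.14 on replicates 1 and 4 and overlapped. Of 9 Schwann and neural genes, Erbb3 was called higher. The part of such cells in the differences above was not tested. Of 4 sex-linked genes, 0 were called.

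Whether the replicate set difference depended on the genotype label was tested, since the split does not use the label. Each column set of equal mean lies wholly under 1 label. A dependence on the label therefore cannot be told apart from a dependence on the column set. In limma, with the 3 column sets of equal mean as a block and 3 residual degrees of freedom, 35 of 19938 genes (0.176%) passed at an adjusted p under 0.05. The difference was larger (more positive) under the label WT for 9 of them and smaller for 26, and in 23 of the 35 it had opposite signs under the 2 labels. Only 10 of the 35 were among the 575 called genes. The count was unstable: it was 0 when either Runx1f/f 3 or Runx1f/f 4 was left out (with 1750 genes at an unadjusted p under 0.05), 1 without WT 3, 3 without WT 2, 7 without WT 1 and 84 without WT 4, and it was 185 with the replicate block.

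Dpysl3, a cytoskeletal protein of growing axons and migrating cells, had the smallest p (limma, adjusted p = 0.011). It measured 7.94 and 7.73 on WT 2 and 3 against 10.42 and 10.07 on WT 1 and 4, and 9.38 and 9.45 on Runx1f/f 2 and 3 against 8.70 and 8.64 on Runx1f/f 1 and 4, so that it was lower under one label and higher under the other. Cdh11, a mesenchymal cadherin, and Ripk3, a kinase of necroptosis, did the same, with label differences (WT minus Runx1f/f) of -2.20 and -2.30.

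Scd1, a fatty acid desaturase, and Gal, the neuropeptide galanin, were higher in replicates 2 and 3 under the label WT and lower under Runx1f/f, with label differences of 1.88 and 2.01. Pde2a, a phosphodiesterase, differed by 1.84 under WT and by -0.04 under Runx1f/f. Of the marker genes, Cdkn1c, Nrk and Sp7 passed this test too, with label differences of 1.96, 2.61 and -2.67, and so did Pdk4 with -1.80; each of these kept its sign and had the difference of larger size under WT. Cholesterol synthesis genes, of which 0 were called, had a median of 0.29 under the label WT and -0.46 under Runx1f/f, a contrast that was not tested for the list.

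**Figure D5:**
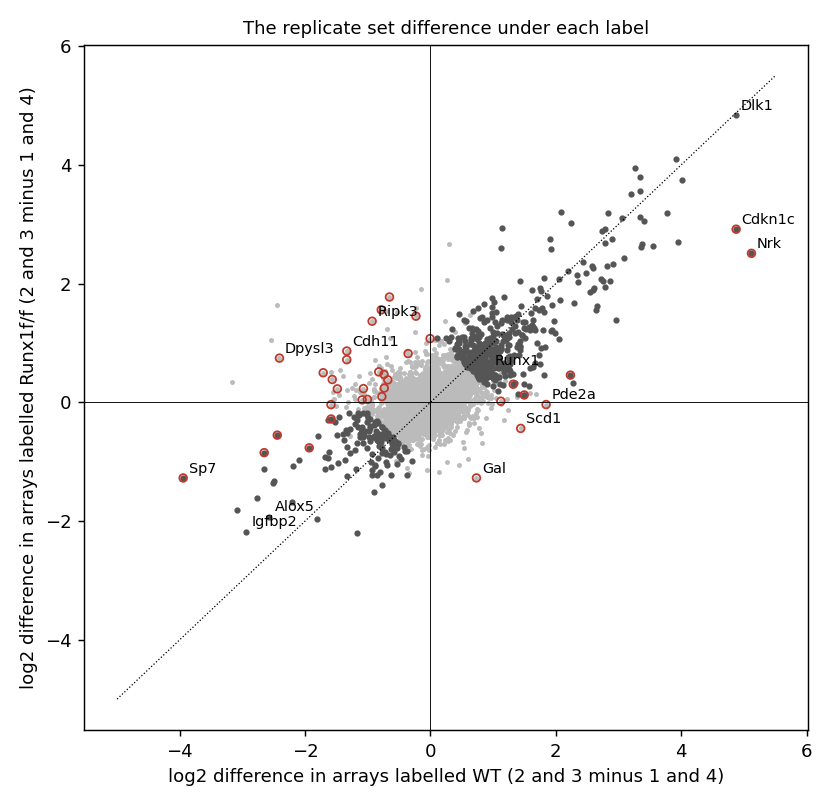
Log2 difference of each gene between replicates 2 and 3 and replicates 1 and 4 among arrays labelled WT (x axis) and among arrays labelled Runx1f/f (y axis); dark points are the 575 called genes, red rings the 35 genes whose difference depended on the label, and the dotted line marks equal differences. All called genes lie in the lower left or upper right quadrant, as the call rule requires, and Dpysl3, Cdh11, Ripk3, Scd1 and Gal lie in the others.

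Called genes differed by a median of 0.96 under the label WT and 0.79 under Runx1f/f, in absolute value. Across all genes the difference under WT and that under Runx1f/f correlated by 0.64, which is a description over genes that share arrays and normalization. The 2 differences use separate arrays, but the split was chosen with all 8 in view.

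Promoter windows of the called genes were searched for the letters bound by the factors named in the title of the series. RefSeq windows (GRCm38.p6) run from 250 bases before to 50 after a start site, and 19177 windows of 15614 genes were searched on both strands; in 42 windows hits of different motifs overlapped. The Runx motif TGTGGT was in 14.2% of all windows, 12.4% of those of genes called higher and 16.9% of those called lower. The E-box CAGCTG, which MyoD can bind, was in 16.3%, 24.3% and 15.4%. The AP-1 motif TGANTCA was in 6.9%, 9.81% and 8.46%. Genes called higher had 428 windows of 294 genes, out of 430 called, and genes called lower 130 windows of 102 genes. The shares are of windows, so a gene with several start sites counts more than once. These are shares of letter matches and not of bound sites, and windows of 1 gene can overlap.

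The windows of 4 genes are shown because they carry these letters next to genes that the results turn on, called higher or lower, with motifs in capitals: Dlk1 at chr12:109452573-109452872 (plus strand) with 1 Runx motif, Runx1 itself at chr16:92826025-92826324 (minus strand, the more upstream of its windows) with 2 Runx motifs, read on the opposite strand, Myoz2 at chr3:123034938-123035237 (minus strand) with 1 Runx motif, 1 E-box and 1 AP-1 motif, and Mcpt8 at chr14:56085148-56085447 (minus strand) with 2 Runx motifs.
Dlk1: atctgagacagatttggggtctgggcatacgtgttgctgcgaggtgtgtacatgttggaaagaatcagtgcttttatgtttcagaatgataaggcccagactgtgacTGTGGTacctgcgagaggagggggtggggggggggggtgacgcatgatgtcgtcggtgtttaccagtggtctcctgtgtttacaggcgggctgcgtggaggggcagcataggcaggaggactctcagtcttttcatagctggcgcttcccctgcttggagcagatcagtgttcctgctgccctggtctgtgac
Runx1: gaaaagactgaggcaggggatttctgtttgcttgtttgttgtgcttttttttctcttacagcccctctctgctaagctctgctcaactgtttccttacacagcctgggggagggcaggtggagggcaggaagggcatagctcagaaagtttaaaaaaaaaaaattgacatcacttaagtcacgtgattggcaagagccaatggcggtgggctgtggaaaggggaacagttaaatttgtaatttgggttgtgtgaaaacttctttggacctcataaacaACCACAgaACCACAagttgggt
Myoz2: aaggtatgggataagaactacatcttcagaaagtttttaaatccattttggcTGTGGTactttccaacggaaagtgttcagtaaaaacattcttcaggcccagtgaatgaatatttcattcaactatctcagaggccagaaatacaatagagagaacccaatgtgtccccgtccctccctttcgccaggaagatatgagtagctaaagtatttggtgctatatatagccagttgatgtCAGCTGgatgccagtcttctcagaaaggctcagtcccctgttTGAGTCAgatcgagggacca
Mcpt8: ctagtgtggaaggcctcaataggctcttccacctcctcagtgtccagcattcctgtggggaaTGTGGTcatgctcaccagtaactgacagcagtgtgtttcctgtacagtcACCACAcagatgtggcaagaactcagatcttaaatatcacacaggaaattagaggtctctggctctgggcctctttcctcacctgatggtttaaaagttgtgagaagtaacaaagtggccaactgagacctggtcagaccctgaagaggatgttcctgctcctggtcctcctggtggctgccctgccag

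The windows were picked for their letters, so they say nothing of a direction: Dlk1, Runx1 and Myoz2 were higher in replicates 2 and 3, by 4.85, 0.74 and 1.35, and Mcpt8 was lower, with a difference of -2.45. Pdk4 and Myf5, which were also lower, have 1 Runx motif each in their windows. A window without the letters says only that they are not in that stretch, and no binding was measured here.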

How the data were processed

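The deposited table holds log2 intensities of 35399 probe sets on 8 arrays; the submitters' processing notes name RMA and Partek and give no versions or order. RMA subtracts background, brings all arrays to 1 distribution and combines the probes of a set. No label or header records the later step that left the column sets with equal means. Columns were assigned by the accession in their header. Gene symbols came from GEO's annotation of the platform: 21789 had 1 symbol, 1621 several and 11989 were not annotated there. Gene identifiers of 21698 matched RefSeq (GRCm38.p6), which changed 0 symbols. Each of 19938 genes was represented by its brightest probe set (999 had more than 1), with no filter on dim genes.

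Set means, SDs and calls were computed in Python 3.11.15. The label test was run in R 4.3.3 with limma 3.58.1 (lmFit, then eBayes, two-sided, Benjamini-Hochberg over all genes); its p-values measure only the spread between these columns, whose independence is overstated. Tested on simulated data, it recovered 73% of genes with a label difference of 1 and 97% at a label difference of 2. Of 178 calls, 8 were false. The simulated arrays were drawn independently, with a spread taken from these columns, before their column set means were made equal. These rates hold for that setting and do not give the error rate in the deposited columns. No paper was used here.

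The split, its marker genes, the 30 gene lists and the tests were chosen with earlier results of these data known. Named were the 6 markers, Runx1, Cbfb, Pax7, Myf5, Myod1, Myog, Jun and Cdkn1a (which has no probe set of its own symbol alone and was not analysed here), the 12 largest called differences each way (leaving out predicted genes, clone identifiers and Rik names), up to 4 called members per list or else the most different one, 3 genes on each side of the threshold and the 6 smallest p in the label test. A few others were named after their values were seen: Des, Cdh15 and AW551984, further members of the interval, seed-sharing and other microRNA genes, Igf2, Actn3, Igf2r, Zim1, Zdbf2, Grb10, Peg10, Asb4, Smyd1, Rgs5, Vegfa, Hey1, Sdc3 and Bgn. Replicate numbers occur under both labels. Deviations from the label mean correlated by 0.39, 0.46, 0.60 and 0.57 for numbers 1 to 4, but the number fixes the side of the split; with the split removed the correlations were 0.18 and -0.09. Alternatives were other call rules, scalings, probe set choices, a filter on dim genes, blocks, a variance model and each array left out.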

Additional observations from a re-analysis of the deposited data

Results flagged for a closer look

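Single arrays stood apart within a set of 4 for 11 of the named genes' set values and 4 list medians, 15 of 252 groups checked; chance marks about 5% of such groups. In replicates 2 and 3 these were Myod1 on WT 3 (11.12), Ccn3 on Runx1f/f 2 (5.67), Trp53i11 on WT 2 (7.56), Heyl on WT 3 (7.42), Sfrp2 on Runx1f/f 2 (5.95), Chac1 on Runx1f/f 2 (5.59) and Myl1 on Runx1f/f 2 (12.44). In replicates 1 and 4 they were Myod1 on WT 4 (11.57), Nrarp on WT 1 (3.01), Birc5 on WT 4 (6.94) and Cd36 on WT 1 (6.77). The list medians were those of myogenic regulators on WT 3 (7.94), satellite cell and Notch genes on WT 2 (7.51) and on WT 1 (7.34), and AP-1 on WT 3 (4.94).

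The replicate set difference depended on the label in limma for 10 named genes, with these differences between labels (WT minus Runx1f/f): Cdkn1c 1.96, Nrk 2.61, Sp7 -2.67, Pdk4 -1.80, Dpysl3 -3.15, Scd1 1.88, Pde2a 1.88, Cdh11 -2.20, Gal 2.01 and Ripk3 -2.30.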

How the results depend on the processing

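Besides the 430 and 145 called, the counts of genes higher in replicates 2 and 3 and of genes lower in replicates 2 and 3 were 160 and 35 at 2-fold in place of 1.5-fold. Under the other call rules, scalings, all probe sets and the filter on dim genes they were 355 to 462 higher and 126 to 167 lower, and with arrays left out in turn 410 to 459 and 127 to 168. Of the 575 called genes, 526 to 557 kept their call with an array left out, 568 after centring and 566 after repeated quantile normalization. Leaving out an array cannot create overlap, so a call is lost there only by size. Since the arrays of a Runx1f/f pair mirror each other, leaving out either gave nearly the same differences. No called named gene changed sign under the alternatives tried. For arrays left out and for the median of a set, the condition on overlap itself fixes this. Of 1057 values of the 96 named genes, 1 moved by more than the SD within a set (Trdn, to 0.37 over all its probe sets). Leaving out 1 array cannot move a set mean that far, so those values say nothing of stability. Cdh11, which was not called, lay between -0.42 and 0.0061 with an array left out, above 0 only without WT 1. Counts per list moved by over 1.5 times in 63 of 780 settings; where an array was left out these moves were of 1 or 2 genes, among them S phase genes called lower (0 to 2) and matrix genes called higher (to 5 from 3). The label test called 35 genes, and 23 with all probe sets, 173 with no column set block, 90 with trended and robust variance, and 0 to 84 with an array left out. With the replicate block, the number in place of the column sets, it called 185; the correlations do not establish a pairing. A block by replicate number cannot be fitted to the split itself, since each number lies wholly on one side. The cause of these changes was not tested. No detection calls were used, so for dim genes a difference near 0 can be a limit of the array.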

Other observations

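Under the hypothesis that the value columns follow the source numbers in rising order, the columns named WT 1, WT 2, WT 3, WT 4, Runx1f/f 1, Runx1f/f 2, Runx1f/f 3 and Runx1f/f 4 would hold sources 139, 140, 141, 142, 160, 161, 181 and 189. The labels give 140, 141, 161 and 181 as Runx1f/f and the others as WT, so replicates 2 and 3 would be all 4 Runx1f/f samples. This was not tested, and no column was regrouped for it. The study's publication was not among the sources used here; from general knowledge of it, it describes myoblasts without Runx1 as dividing less and differentiating earlier. Beside that account stand the values above under this reading, in the samples that would be Runx1f/f: 21 of 51 contractile genes called higher and 0 lower, Myog higher by 0.76, Cdkn1c by 3.90, and all 37 S phase genes below 0 with 0 called. Runx1 at 0.74 higher stands beside it too, with the deleted exons not known here. So do the myogenic regulators, with 4 of 22 called higher, 1 lower and a median of -0.09. Of 37 G2/M genes, 36 lay below 0 with 0 called, and Pax7 differed by 0.08. The split and its marker Cdkn1c were chosen on these same values, so they do not test that account. As the labels stand, the genotype means are equal in every probe set, so a genotype difference cannot be read from these columns. The values above then describe variation between replicates of the same genotype.

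Probe sets outside the named genes also differed along the split. Of 11989 probe sets without annotation here, 52 were called higher and 31 lower, with differences from -1.04 (probe set 10344006) to 3.51 (probe set 10398366). Of 1621 probe sets with several symbols, 11 were called higher and 2 lower, from -1.26 to 3.57.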
